A study of Homo sapiens with 4 samples.

Results

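The contact domains described here are stretches of the genome over 200 kb and under 600 kb long that contact themselves more than their surroundings in Hi-C of MDA-MB-231 cells. They were chosen by length alone, as the distance between the 2 ends of each domain in the authors' domain lists, and 2165 of the 7418 domains of the 4 libraries fell in this range. Vehicle replicate 1 held 162 such domains of 1198, vehicle replicate 2 held 262 of 1398, THZ1 replicate 1 held 919 of 2477 and THZ1 replicate 2 held 822 of 2345. MDA-MB-231 is a triple-negative breast cancer (TNBC) cell line, here of genotype WT, and all cells were grown in complete RPMI medium. The vehicle cells received DMSO and the THZ1 cells received 75 nM THZ1, each for 48 h, with 2 libraries per condition. The labels call the duplicates technical replicates, so p-values and errors measure only the spread between these libraries. The study asked how inhibition of CDK7 affects the folding of chromatin.

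Within a contact domain, loci meet each other more often than they meet loci beyond the ends. Many domains are thought to form as cohesin extrudes a loop of DNA until it meets CTCF bound at motifs that point toward each other, and a domain of this kind often carries a loop that joins both of its ends, seen as a bright corner of the domain in the contact map. THZ1 is a covalent inhibitor of CDK7, the kinase of the CDK-activating complex and of general transcription factor IIH, and it also inhibits the related kinases CDK12 and CDK13.

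A THZ1 domain was called added when a domain of THZ1 replicate 1 had a counterpart in THZ1 replicate 2, both ends lying within 20 kb, and no counterpart of any length in either vehicle library. A domain with a counterpart in all 4 libraries was called kept. Of the 564 domains of THZ1 replicate 1 that had a counterpart in THZ1 replicate 2, 360 were added, 118 had a counterpart in 1 vehicle library and 86 were kept. In the other direction, 12 of the 101 domains with a counterpart in both vehicle libraries had none in either THZ1 library.

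The DNA at the ends of 4 added domains is shown because they scored high and carried the CTCF core motif in the convergent arrangement: a forward motif within 20 kb of the left end and a reverse motif within 20 kb of the right end. Each sequence was read 5′ to 3′ from GRCh37 on the strand that carries the motif, with the 12 positions of the core motif in capitals.

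PAFAH1B1 and METTL16 domain, left end, chr17:2316224-2316259, plus strand: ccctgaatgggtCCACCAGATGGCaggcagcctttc
PAFAH1B1 and METTL16 domain, right end, chr17:2578762-2578797, minus strand: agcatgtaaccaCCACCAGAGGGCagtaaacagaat
RBM24 and CAP2 domain, left end, chr6:17156507-17156542, plus strand: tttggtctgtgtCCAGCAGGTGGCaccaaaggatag
RBM24 and CAP2 domain, right end, chr6:17586164-17586199, minus strand: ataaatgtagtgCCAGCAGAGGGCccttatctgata
VEGFA domain, left end, chr6:43588849-43588884, plus strand: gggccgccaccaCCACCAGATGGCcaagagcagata
VEGFA domain, right end, chr6:44042443-44042478, minus strand: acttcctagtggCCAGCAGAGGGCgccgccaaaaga
chromosome 19 domain without a gene start, left end, chr19:13388139-13388174, plus strand: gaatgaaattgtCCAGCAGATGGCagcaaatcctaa
chromosome 19 domain without a gene start, right end, chr19:13700212-13700247, minus strand: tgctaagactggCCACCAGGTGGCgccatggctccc

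The domain of PAFAH1B1 and METTL16, which encode a regulator of dynein and an RNA methyltransferase, spans chr17:2330001-2580000, and its motifs lay 13.8 and 1.2 kb from its ends. The domain of RBM24 and CAP2, which encode an RNA-binding protein and an actin regulator, spans chr6:17140001-17580000, with motifs 16.5 and 6.2 kb from its ends. The domain at chr6:43590001-44040000 holds VEGFA, the gene of vascular endothelial growth factor A, and its motifs lay 1.1 and 2.5 kb from its ends. The domain at chr19:13380001-13690000 holds no start of a protein-coding gene, and its motifs lay 8.2 and 10.2 kb from its ends. Each gene was counted at a single start, so a domain without a gene start can still overlap a gene. The match to a motif describes the sequence and does not show that CTCF was bound there.

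The lists hold no totals of sequenced reads, and the study's methods give read depth as a range over samples and not for each library, so the contacts at called loops are given in its place. These summed to 622305 and 762701 in the vehicle libraries and to 631600 and 551436 in the THZ1 libraries, over 20768, 24219, 17222 and 15066 loops. The loops in these lists thus fell in number with THZ1 while the domains rose, and neither sum is a library size. Domain and loop calls both depend on depth and on the callers' thresholds, and the part of depth in the counts of domains was not tested.

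Domains of this range averaged 212 ± 70.7 (SD, n = 2) per vehicle library and 870.5 ± 68.6 (SD, n = 2) per THZ1 library, a 4.11-fold difference. Both THZ1 libraries lay above both vehicle libraries. With 2 libraries against 2, the exact two-sided permutation test cannot give a p below 0.33, which is the value it gave. As a share of all domains of a library, they made up 13.5 and 18.7% with vehicle against 37.1 and 35.1% with THZ1. The domains outside the range moved less: the vehicle libraries listed 627 and 725 domains up to 200 kb against 1119 and 1068 in the THZ1 libraries, and those of 600 kb or more numbered 409 and 411 against 439 and 455.

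The ratio between the conditions widened with length. From above 200 to 300 kb, the vehicle libraries listed 147 and 240 domains and the THZ1 libraries 715 and 671, a 3.58-fold difference. From above 300 to 400 kb the counts were 14 and 20 against 174 and 126, an 8.82-fold difference, and from above 400 to 500 kb they were 1 and 2 against 25 and 19, a 14.7-fold difference. Over 500 kb the vehicle libraries held none and the THZ1 libraries held 5 and 6. No test of the trend over length was made, and the longest steps rest on few domains. Each vehicle library had a median length of 230 kb and each THZ1 library one of 250 kb.

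**Figure D1:**
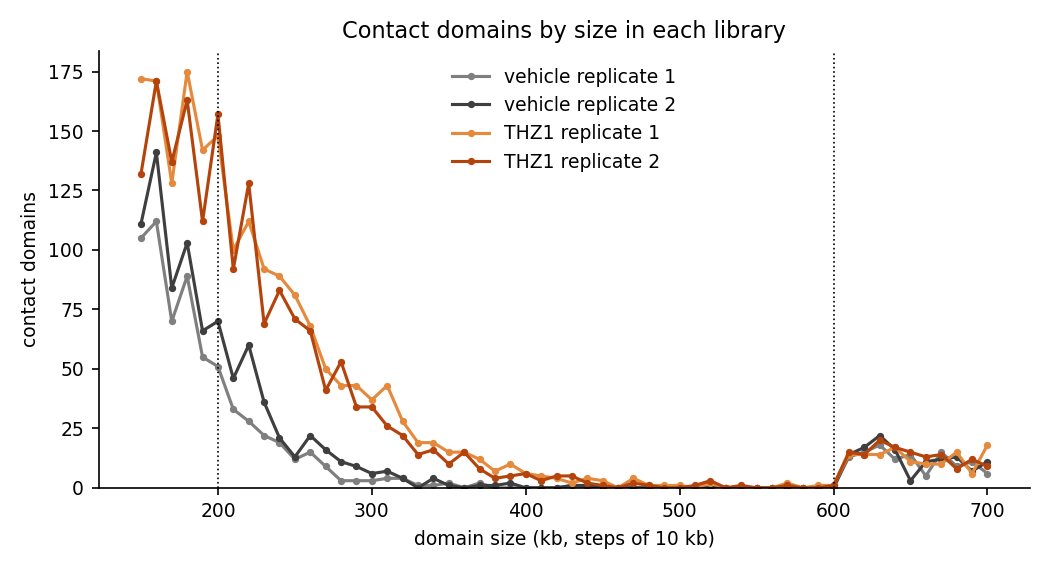
The number of contact domains (vertical axis) is plotted at each domain length in kb (horizontal axis, steps of 10 kb) for the 2 vehicle and the 2 THZ1 libraries, and dotted lines mark 200 and 600 kb. Both THZ1 curves lie above both vehicle curves from 150 kb, the left edge of the plot, to 450 kb, and from 610 kb on the 4 curves overlap.

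At the limits of the range, the counts passed without a break at the lower limit and with one at the upper. Domains of 200 kb, just outside, numbered 51, 70, 148 and 157 in vehicle replicates 1 and 2 and THZ1 replicates 1 and 2, and domains of 210 kb, just inside, numbered 33, 46, 100 and 92. Domains of 590 kb numbered 0, 0, 1 and 0, those of 600 kb 0, 0, 1 and 1, and those of 610 kb 13, 14, 14 and 15. The step at 610 kb was present in all 4 libraries.

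The corner score of a domain, which the domain caller gives for how sharply its corner stands out in the contact map, was alike in the conditions. Its median over domains of this range was 1.24 and 1.26 with vehicle and 1.26 and 1.25 with THZ1, above the medians of 1.05 to 1.08 for domains up to 200 kb and of 0.735 to 0.874 for those of 600 kb or more. The domains covered 39.7 and 64.5 Mb of the genome with vehicle and 246.5 and 217.3 Mb with THZ1.

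Domains were matched between libraries against domains of any length, and the shares found depend on how long each list was. The vehicle lists held 473 and 638 domains of a length that could match one of the range, and the THZ1 lists 1555 and 1441, so many of the 919 and 822 THZ1 domains could have no vehicle counterpart wherever they lay. Of the 162 domains of vehicle replicate 1, 101 (62.3%) had a counterpart in the other vehicle library, and 111 and 108 had one in the first and second THZ1 library. Of the 262 of vehicle replicate 2, 113 (43.1%) were found in the other vehicle library and 187 (71.4%) in each THZ1 library. Of the 919 of THZ1 replicate 1, 564 (61.4%) had a counterpart in the other THZ1 library, against 128 (13.9%) in the first and 198 (21.5%) in the second vehicle library. Of the 822 of THZ1 replicate 2, 562 (68.4%) were found in the other THZ1 library. Domains without a counterpart in the duplicate were thus common in both conditions.

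The added domains had a median length of 260 kb, from 210 to 570 kb, and a median corner score of 1.28, from 0.828 to 1.85. The kept domains had medians of 240 kb and 1.36, and the 12 vehicle-only domains of 210 kb and 1.18. Among domains of both THZ1 libraries, the added share was 57.2% (175 of 306) up to 250 kb, 64.5% (100 of 155) over 250 and up to 300 kb, 82.4% (70 of 85) over 300 and up to 400 kb and 83.3% (15 of 18) above that. The kept domains showed little shift in score, their medians being 1.33 and 1.35 with vehicle against 1.37 and 1.35 after THZ1 (exact permutation p = 0.667, n = 2 per condition). Of these 86 domains, 38 scored higher in both THZ1 libraries than in both vehicle libraries and 17 scored lower.

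The added domains lay on every chromosome analysed, but not evenly. On all 23 chromosomes, both THZ1 libraries held more domains of this range than both vehicle libraries. Chromosome 1 held the most added domains, 54, and per 100 Mb of sequence they were densest on chromosome 20 (30.2), chromosome 1 (24.0) and chromosome 9 (22.5), against a median of 12.1. They were sparsest on X (0.662), chromosome 13 (1.05), chromosome 16 (1.27), chromosome 15 (4.90) and chromosome 22 (5.73). Chromosome 6 held 23 of the 86 kept domains, and its vehicle libraries already listed 38 and 41 domains of the range.

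Across the 23 chromosomes, the density of added domains went with how many domains the vehicle libraries held and how many contacts the loops carried, and hardly with gene density. Pearson's r was 0.687 (Spearman's rho 0.656) with the median contacts per THZ1 loop, 0.667 (0.570) with vehicle domains per 100 Mb and 0.055 (0.212) with genes per Mb. These are descriptions over chromosomes of the same 4 libraries, which share depth, copy number and mappability, and they carry no test. In windows of 5 Mb, the added domains were spread over 226 windows, and 9 windows held 4 each.

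**Figure D2:**
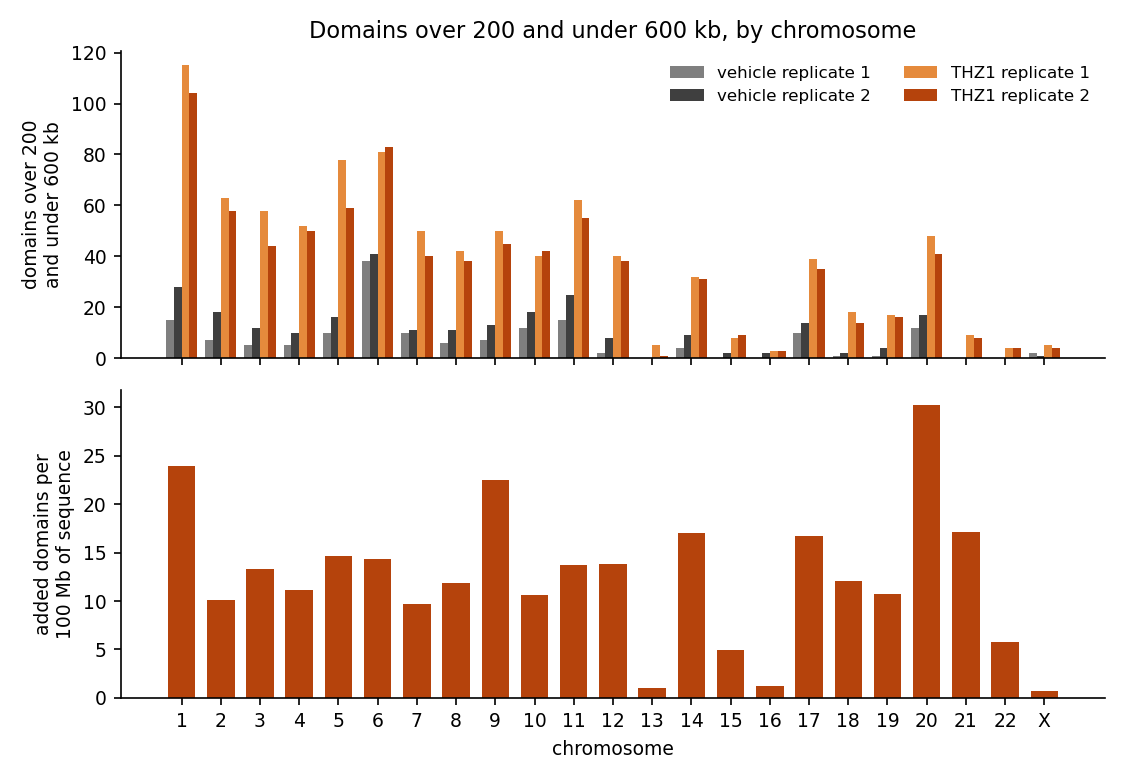
Bars give, for each chromosome, the number of domains over 200 and under 600 kb in each of the 4 libraries (top) and the added domains per 100 Mb of sequence (bottom). Both THZ1 bars exceed both vehicle bars on all 23 chromosomes, and the bottom bars range from 0.662 on X to 30.2 on chromosome 20.

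Against the vehicle domains of any length, 198 of the 360 added domains (55%) overlapped none. Another 101 (28.1%) held at least 1 smaller vehicle domain, 50 (13.9%) lay inside a larger one, 8 did both and 3 overlapped 1 in part. Inside vehicle domains of 600 kb or more lay 57 added domains (15.8%) and 1 of 86 kept domains (1.16%). Kept domains match vehicle domains of about their length, and no vehicle domain of the range lay inside a larger one of its own library. Domains of 600 kb or more covered 15.2% of genome positions on a 10 kb grid. That is a share of points and not of whole stretches, so it is not a like measure. Only 48 (13.3%) shared over 80% of both lengths with a vehicle domain and 114 (31.7%) over 50%. Added domains rarely adjoined each other, and 23 (6.39%) had another added domain ending or beginning within 20 kb of an end.

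The domain at chr17:2330001-2580000 shows how an added domain can lie over a vehicle domain. Vehicle replicate 1 listed a domain at chr17:2360001-2570000 and vehicle replicate 2 one at chr17:2370001-2570000 (corner scores 1.46 and 1.35). Both lay over the same genes, METTL16 and PAFAH1B1, and neither THZ1 library listed the former with both ends within 20 kb. The added domain ended within 20 kb of both on the right. On the left it ended 30 kb from the domain of vehicle replicate 1 and further from that of vehicle replicate 2. It scored 1.6 and 1.65 in THZ1 replicates 1 and 2. The same arrangement was found at NCAPG2, which encodes a subunit of condensin II: an added domain spans chr7:158440001-158700000 (scores 1.21 and 1.18) and a vehicle-only domain chr7:158470001-158700000 (1.34 and 1.18). For these loci, the domains counted as added and as vehicle-only were neighbors of which only 1 end differed by more than 20 kb.

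The added domains held the starts of 799 protein-coding genes, 8.09 per Mb, against 7.08 per Mb over the genome and 9.52 in kept domains. The median added domain held 2 gene starts, the richest held 16, and 58 (16.1%) held none. Their median GC content was 41.4%, against 42.1% in kept domains and 39.8% over all 10 kb bins. A gene start lay within 20 kb of 36.9% of their ends, against 20.4% of grid positions and 42.4% of the ends of kept domains. These values describe 1 set of domains and carry no test.

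The 8 added domains with the highest corner scores hold few genes, and all 8 had both ends within 20 kb of a vehicle loop anchor. The highest score, 1.83 and 1.86 in THZ1 replicates 1 and 2, was that of chr8:81150001-81500000, next to TPD52, a gene of vesicle traffic that is amplified in breast cancer, and over ZBTB10, which encodes a zinc finger protein. It was followed by chr12:75900001-76420000 (1.82 and 1.83), with KRR1, a factor of ribosome assembly, inside and PHLDA1 at its end. The third was chr5:159440001-159830000 (1.82 and 1.81), which holds or adjoins PTTG1, the gene of the separase inhibitor securin, the splicing factor gene SLU7, TTC1, FAM200C and C1QTNF2.

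The domain at chr2:70530001-70870000 (1.81 in both) holds TGFA, a ligand of the EGF receptor, and ends near FAM136A and the spliceosome gene SNRPG. Both of its ends were already vehicle domain ends, of smaller domains that it holds. The domain at chr9:131900001-132370000 (1.82 and 1.80) ends near NTMT1, a methyltransferase of protein N termini, C9orf50 and IER5L. The domain at chr6:6670001-7240000 (1.81 and 1.80) was 570 kb long and spans RREB1, a zinc finger factor of RAS-responsive genes.

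The domain at chr8:90720001-91000000 (1.79 in both) holds RIPK2, a kinase of innate immune signaling, and OSGIN2, and ends near NBN, a subunit of the complex that senses DNA double-strand breaks, and DECR1, an enzyme of fatty acid oxidation. The eighth, at chr1:100930001-101340000 (1.78 and 1.80), holds VCAM1, the gene of a cell adhesion molecule. In the 4 libraries the loops joining the ends of these domains carried, for the 2 of them whose loop had identical anchors in all 4 lists, 23, 18, 29 and 25 contacts at PTTG1 and 88, 62, 78 and 52 at IER5L, in the order of vehicle replicates 1 and 2 and THZ1 replicates 1 and 2. The vehicle and THZ1 counts overlapped at IER5L, and at PTTG1 both THZ1 counts were above both vehicle counts. Relative to the expected contacts, which were also higher with THZ1 at PTTG1, neither loop passed edgeR's test (log2 change -0.15 at PTTG1, adjusted p = 0.722, and -0.20 at IER5L, adjusted p = 0.551).

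The 3 most gene-rich added domains scored below the 8 above and were joined by no loop. The domain at chr9:139680001-139890000 held 16 gene starts and ended near CLIC3, a chloride channel gene, PAXX, a gene of DNA end joining, TMEM141 and CCDC183 (1.08 and 1.12). The domains at chr11:118010001-118430000 (1.55 and 1.52) and chr11:118900001-119200000 (0.959 and 0.902) held 14 each. The former ended near ARCN1, which encodes a subunit of the COPI coat, SCN4B, IFT46, TMEM25 and TTC36, and the latter near SLC37A4, the glucose-6-phosphate transporter gene, MCAM, RNF26, TRAPPC4 and RPS25. No library listed a loop joining both ends of any of these 3.

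The highest-scoring added domains without a gene start were chr4:160130001-160370000 (1.81 and 1.76) and chr4:21510001-21760000 (1.71 and 1.58), and both carried a loop with identical anchors in all 4 lists. The former's loop held 31, 37, 45 and 39 contacts in vehicle replicates 1 and 2 and THZ1 replicates 1 and 2. The latter's held 32, 42, 68 and 47. In both loops the observed THZ1 counts lay above the vehicle counts. The expected contacts did so as well, and relative to them neither loop passed edgeR's test (log2 change 0.019, adjusted p = 0.960, and -0.027, adjusted p = 0.935).

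Of the gene lists, single members fell in added domains. These were NCAPG2 of 8 condensin genes, CDK12 of 10 genes of the CDK7 complex and transcriptional kinases, WWTR1 of 13 genes of the YAP and TEAD pathway and SNAI1 of 14 genes of epithelial-mesenchymal transition. None of the 14 cohesin and CTCF genes, 14 mitotic regulators, 10 AP-1 factors or 12 luminal breast genes did. Over all protein-coding genes the share was 3.97%, so lists of this length hold too few members to tell a list from the rest.

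CDK12, a kinase of transcription elongation, lay with MED1 and FBXL20 in chr17:37400001-37670000, which had the low scores of 0.884 and 1.03. WWTR1, which encodes the YAP partner TAZ, lay in chr3:149240001-149470000 (1.6 and 1.5). SNAI1, the gene of the transcription factor Snail, lay in chr20:48550001-48790000 (1.04 and 1.03), whose ends were both vehicle domain ends and vehicle loop anchors and were joined by no loop. In kept domains lay CDCA5, the gene of the cohesin regulator sororin, and TEAD2.

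Gene families were looked at after the domains had been seen. Olfactory receptor genes were in added domains at about the share of all genes, 14 of 415 (3.37%), and 7 of 515 ZNF genes were (1.36%). Of 39 HOX genes, HOXC11, HOXC12 and HOXC13 lay in the added domain at chr12:54160001-54370000 (1.48 and 1.49). None of the 66 PCDH and 55 KRT genes did, and 2 of 74 histone genes did.

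Most ends of added domains lay away from vehicle domain ends and near vehicle loop anchors, but both shares were above those of the grid. Vehicle anchors lie more densely than vehicle domain ends. Added domains were also chosen for having no vehicle counterpart, which by itself lowers their share at vehicle domain ends. Of their 720 ends, 197 (27.4%) lay within 20 kb of an end of a vehicle domain of any length, against 6.32% of grid positions. Both ends did so in 21 added domains, 1 end in 155 and no end in 184. For vehicle loop anchors, the share was 33.7% of grid positions and 89.5% of the ends of kept domains. Of the ends of added domains, 614 (85.3%, 95% Wilson interval 82.5 to 87.7%) lay within 20 kb of such an anchor. Both ends did so in 266 added domains, 1 end in 82 and no end in 12, while 16.6% of pairs of grid positions at the same distances had both. The Wilson intervals cover counting error over ends only.

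The vehicle and the THZ1 anchors at these ends were largely the same places. A THZ1 loop anchor lay within 20 kb of 83.8% of the ends, 580 ends had an anchor of both conditions, 34 of vehicle alone, 23 of THZ1 alone and 83 of neither. Counted jointly, vehicle domain ends and loop anchors accounted for both ends of 277 added domains (76.9%) and for neither end of 9. The shares depend on the distance allowed: at 10 kb, 67.8% of ends lay at a vehicle anchor against 20.6% of grid positions, and at 50 kb 97.6% against 52.8%.

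Of the 9 added domains with neither end at a vehicle domain end or loop anchor, the 3 with the highest scores were of moderate score. The domain at chr12:124250001-124490000 (1.28 and 1.22) holds or adjoins DNAH10, an axonemal dynein gene, RFLNA, CCDC92 and ZNF664. The domain at chr4:153380001-153650000 (1.19 and 1.11) holds FBXW7, which encodes a substrate receptor of a ubiquitin ligase and is a tumor suppressor, and TMEM154. The domain at chr3:11900001-12140000 (1.08 and 1.17) holds SYN2, a synapsin gene, and adjoins TAMM41, a gene of cardiolipin synthesis. In none of the 4 libraries did a loop join both ends of these 3 domains.

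**Figure D3:**
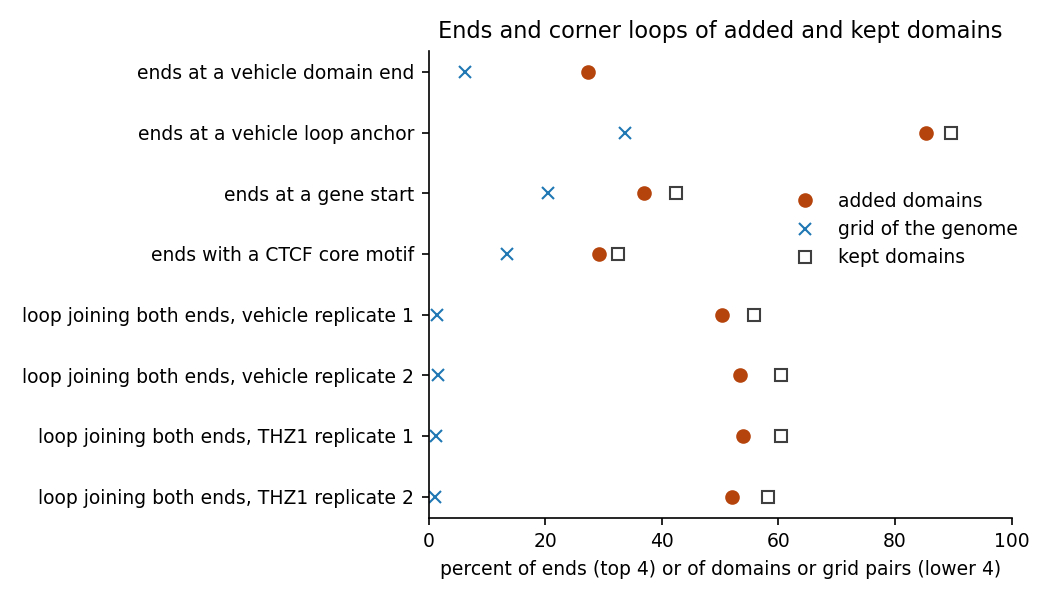
Points give the percentage of ends of added domains (filled circles, 720 ends), kept domains (open squares, 172 ends) and grid positions of the genome (crosses) within 20 kb of each feature, and, in the lower 4 rows, the percentage of domains or grid pairs with a loop joining both ends in each library. Kept domains have no square in the top row because a kept domain matches a vehicle domain by definition. The added domains sit near the kept ones and far from the grid in every row that has a square.

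The loop that joins both ends of an added domain was as often listed with vehicle, where the domain itself was not. Such a loop was listed for 181 of the 360 added domains (50.3%) in vehicle replicate 1 and 192 (53.3%) in its duplicate, against 194 (53.9%) and 187 (51.9%) in THZ1 replicates 1 and 2. The 4 values differed by less than 4 percentage points, and pairs of grid positions at the same distances had such a loop in 1.17 to 1.62%. In kept domains the shares were 55.8, 60.5, 60.5 and 58.1%. All 4 libraries listed the loop for 151 added domains (41.9%), at least 1 vehicle library for 210 (58.3%), at least 1 THZ1 library for 208 (57.8%) and no library for 128 (35.6%).

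Added domains whose corner loop was listed in both libraries of 1 condition alone were few. In 6, both THZ1 libraries and neither vehicle library listed the loop, and in 3 both vehicle libraries and neither THZ1 library did. These 9 are named after their values were seen. The 6 lay at the PLA2G2 phospholipase genes (chr1:20250001-20490000), FAM107B (chr10:14590001-14880000), FXYD2 and FXYD6 (chr11:117680001-117930000), FAM20A (chr17:66510001-66750000), BACH1 (chr21:30470001-30730000) and BMP5 with HMGCLL1 (chr6:55290001-55810000). Of these, the loop at BACH1, a repressor of oxidative stress genes, held 39 and 42 contacts in THZ1 replicates 1 and 2, and the one at FAM20A 25 and 19.

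The 3 domains whose loop was listed with vehicle alone lay at SC5D and SORL1 (chr11:121160001-121460000), TBPL2 and KTN1 (chr14:55900001-56150000) and LIMCH1 (chr4:41360001-41660000). The loop at LIMCH1 held 14 and 13 contacts in vehicle replicates 1 and 2. A loop missing from a list fell below the loop caller's thresholds, and its contacts are not given.

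Over all domains of the range, the share joined by a loop of the same library was 48.1% (95% Wilson interval 40.6 to 55.8%) and 51.5% (45.5 to 57.5%) with vehicle and 47.3% (44.1 to 50.6%) and 46.1% (42.7 to 49.5%) with THZ1. The mean difference was -3.12 percentage points (exact permutation p = 0.33, n = 2 per condition), and it turned to +0.514 when ends and anchors had to lie within 10 kb. The share was higher than the 26.2 to 29.2% of domains of 600 kb or more in every library, and close to the 43.1 to 46.1% of domains up to 200 kb.

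The CTCF core motif lay within 20 kb of 27.5 and 28.2% of the ends of these domains with vehicle and of 28.7 and 28.3% with THZ1, against 13.5% of grid positions. The difference between conditions was 0.652 percentage points (exact permutation p = 0.33, n = 2 per condition). Convergent pairs went the other way, at 5.56 and 6.11% of these domains with vehicle and 4.68 and 4.50% with THZ1 (exact permutation p = 0.33). In added domains the motif was found at 29.3% of ends and in kept domains at 32.6%. The motif faced inward more than outward: 80 left ends of added domains (22.2%) had a forward motif and 42 (11.7%) a reverse one, while 83 right ends (23.1%) had a reverse motif and 31 (8.61%) a forward one. Over the grid the shares were 7.22% forward and 7.05% reverse. A convergent pair was found in 5.56% of added domains, 10.5% of kept domains and 0.644% of grid pairs, and a divergent pair in 1.11% of added domains and 0.650% of grid pairs.

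**Figure D4:**
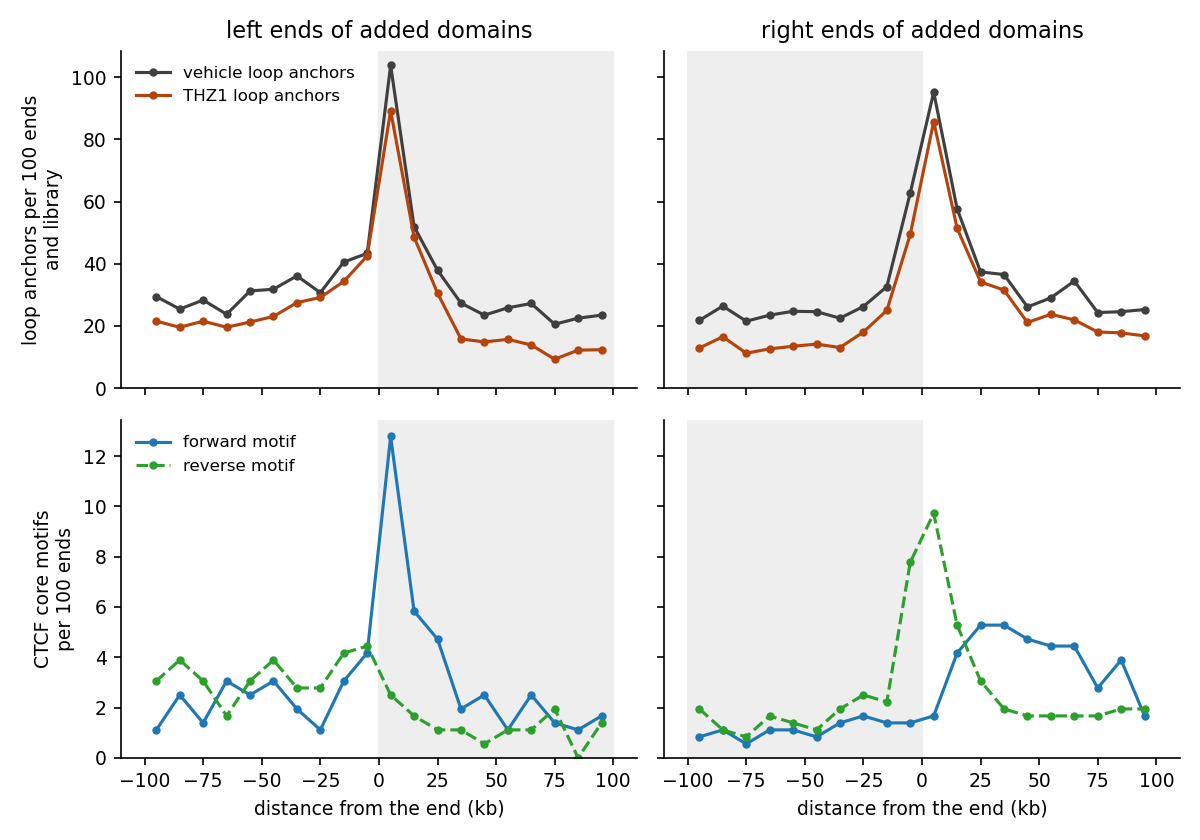
The top panels plot loop anchors per 100 ends and library, the bottom panels CTCF core motifs per 100 ends by strand, both in 10 kb steps of distance from the left and right ends of the 360 added domains (kb), with the inside of the domain shaded. Vehicle and THZ1 anchors peak in the step from 0 to 10 kb to the right of the end, at 104 and 89.2 for left ends and 95.1 and 85.7 for right ends, and the THZ1 line lies below the vehicle line throughout, most of all inside the domain.

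The plot of anchors by distance led to a count of loops by their place in the added domains, made after it had been seen. Added domains were chosen for being listed with THZ1 and not with vehicle, in domain lists made from the same contacts as the loops. The counts are therefore described without a test. There were 187 and 198 loops joining both ends in the vehicle lists and 198 and 193 in the THZ1 lists, a ratio of 1.02. The vehicle lists held 1169 and 1354 loops lying inside an added domain and the THZ1 lists 794 and 676, a ratio of 0.583. Loops crossing an end numbered 265 and 346 against 206 and 153, a ratio of 0.588. The inner and crossing loops were thus fewer in both THZ1 libraries than in both vehicle libraries. The THZ1 lists were shorter, with 0.718 times the loops of the vehicle lists. As a share of all loops of a list, corner loops of added domains made up 0.90 and 0.818% with vehicle and 1.15 and 1.28% with THZ1, a ratio of 1.41, and the ratios of inner and crossing loops were 0.811 and 0.818. Corner loops of kept domains made up 0.231 and 0.215% with vehicle and 0.308 and 0.339% with THZ1, a ratio of 1.45. The higher share with THZ1 was thus not particular to added domains.

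Short loops were fewer with THZ1 outside the added domains as well. Over the genome, the vehicle lists held 13036 and 15036 loops up to 200 kb and the THZ1 lists 8726 and 7599, a ratio of 0.582. The ratio was 0.871 for loops above 200 and up to 600 kb and 1.20 for longer loops. In kept domains, the inner loops had a ratio of 0.568. Within the added domains, inner anchors fell from 24.6 and 29.2 per Mb to 16.8 and 13.8, and anchors 20 to 100 kb outside the ends went from 27.7 and 31.6 per Mb to 24.5 and 21.5. The density inside was 0.889 and 0.924 of that outside with vehicle and 0.685 and 0.642 with THZ1, a ratio of 0.732 between the conditions. In kept domains it went from 1.16 and 1.19 to 0.975 and 0.876, a ratio of 0.789, and the difference between added and kept domains was not tested.

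The strength of corner loops was compared over loops with identical anchors in all 4 lists, as the observed contacts relative to the contacts expected from the ring of pixels around the loop (the donut). Of 2623 such loops, edgeR's quasi-likelihood test with Benjamini-Hochberg adjustment called 648 weaker with THZ1 (24.7%) and 2 stronger (0.0762%) at an adjusted p of 0.05. In data simulated on these loops, the share of false calls was above that threshold, so the calls are not taken as held to it. Of the 195 that joined both ends of a domain of the range, 39 were called weaker and 0 stronger, with 64 at an unadjusted p under 0.05. Of the 61 that joined both ends of an added domain, 10 were called weaker and 0 stronger, with 21 at an unadjusted p under 0.05. The median log2 change was -0.37 over the loops of domains of the range, -0.35 over those of added domains and -0.41 over all loops tested.

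The number of calls at domains of the range stayed between 37 and 44 with the bottom-left neighborhood, a minimum of 20 contacts, a replicate block or a stricter filter, and was lower under the other settings, as it was over all loops. With the horizontal neighborhood in place of the donut, 3 of these loops and 48 of all 2620 were called weaker, and with the vertical one 2 and 59 of 2621, while the median change over the loops of domains of the range was -0.29 and -0.28. With 3 libraries, a condition was left with a single library, so only the size of the change is given here. The medians at domains of the range were then -0.43 to -0.34. DESeq2 called 0 of the loops at domains of the range weaker and 0 stronger, with 19 at an unadjusted p under 0.05 and a median of -0.38. Over all loops it called 0 weaker and 1 stronger.

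With the observed contacts scaled by TMM and no expectation, 6 loops of domains of the range were called weaker and 8 stronger, and 114 and 73 of all loops. The median turned to +0.14 over loops of domains of the range and to +0.18 over those of added domains. TMM centers the changes over all loops, whose median was -0.0047 with TMM against -0.41 with the donut. The TMM medians thus stand relative to the typical loop. In both settings the medians at domains of the range and at added domains lay above the median over all loops. Added domains were chosen for being listed with THZ1 and not with vehicle, and most domains of the range were THZ1 domains. These loops were thus not chosen apart from the contacts compared, and no conclusion is drawn from the order of the medians. The part of the expected contacts in the change of sign was not tested.

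The 2 parts of the ratio moved in different ways at the loops of added domains. The median observed contacts were 32, 42, 42 and 39 in vehicle replicates 1 and 2 and THZ1 replicates 1 and 2. The median expected contacts were 2.70 and 3.20 in the vehicle lists against 4.37 and 4.12 after THZ1. The median ratio of observed over expected contacts was 11.9 in each vehicle library, against 9.46 and 8.60 after THZ1. Observed contacts overlapped between the conditions, while the expected contacts were higher, and the ratio lower, in both THZ1 libraries than in both vehicle libraries. In 42 of the 61 loops the ratio was lower in both THZ1 libraries than in both vehicle libraries, and in 1 it was higher. Over all 2623 loops tested, it was lower in 1802 and higher in 31, so the pattern was not particular to added domains. Their median expected contacts were 4.1 and 4.7 with vehicle against 5.8 and 5.5 after THZ1. Their median ratios were 7.98 and 8.07 against 6.10 and 5.95.

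**Figure D5:**
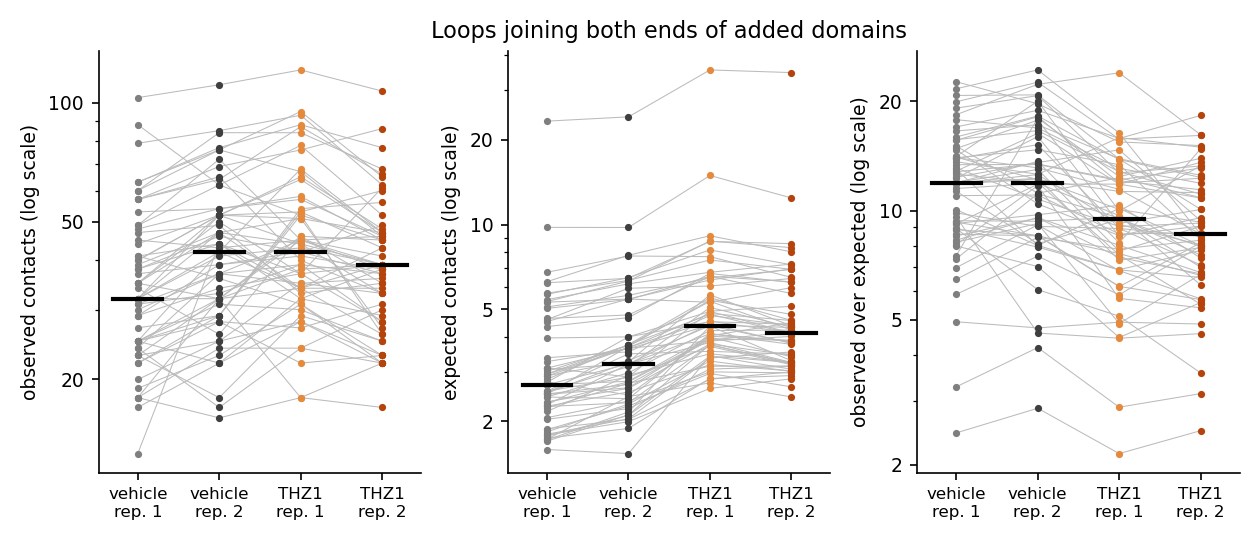
For the 61 loops that join both ends of an added domain and have identical anchors in all 4 lists, the panels plot, on log scales, the observed contacts, the contacts expected from the donut, and their ratio in each library. Thin lines join the values of 1 loop and bars are medians: 32 to 42 observed contacts, 2.70 to 4.37 expected contacts and ratios of 8.60 to 11.9.

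Among the loops of added domains called weaker, the 3 with the largest change were at chr21:36420001-36775000, chr1:68315001-68580000 and chr18:2930001-3250000. The loop on chromosome 21 lies in a domain that holds no gene start as counted here, which does not mean that no gene overlaps it. It held 57 and 65 contacts with vehicle and 40 and 33 with THZ1, so that the counts did not overlap. Its strength fell by 0.92 on the log2 scale (SE 0.19, edgeR adjusted p = 0.00785). With the vertical neighborhood in place of the donut, the change of this loop was -0.018 (edgeR adjusted p = 0.980). The loop on chromosome 1 ends near GNG12 and DIRAS3, which encode a G protein subunit and a small GTPase. It held 49, 62, 52 and 26 contacts, a fall by 0.87 (SE 0.24, edgeR adjusted p = 0.0192), and its counts overlapped.

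The loop on chromosome 18 lies with LPIN2, which encodes a phosphatidate phosphatase, MYOM1 and MYL12A, a myosin light chain gene. It held 25, 31, 30 and 25 contacts, which overlapped, and the fall by 0.86 (SE 0.24, edgeR adjusted p = 0.0198) went with expected contacts of 1.80 and 2.04 with vehicle against 3.36 and 3.53 after THZ1. With TMM and no expectation, its change was -0.010 (edgeR adjusted p = 0.983). Among loops of added domains, 1 had a higher ratio in both THZ1 libraries, and it is named after its value was seen. It joins the ends of the domain of the OR5H and OR5AC olfactory receptor genes on chromosome 3. It held 25, 29, 52 and 45 contacts, with a log2 change of 0.24 that did not pass the test (SE 0.21, edgeR adjusted p = 0.450).

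The 12 vehicle-only domains were the counterpart of the added ones and held 24 gene starts. The 3 with the highest scores were chr9:117200001-117410000 (1.51 and 1.48 in vehicle replicates 1 and 2), with WHRN, TMEM268, TEX53 and the proton pump gene ATP6V1G1, the domain of METTL16 and PAFAH1B1 described above, and chr11:95780001-96130000 (1.32 and 1.34), with MAML2, a coactivator of Notch signaling, CCDC82 and JRKL. The last kept its corner loop in all 4 lists with identical anchors, at 61, 62, 64 and 42 contacts. An added domain, chr11:95740001-96130000, lies over it, with the same right end and a left end further out. Of the 12, vehicle replicate 1 listed a corner loop for 5, vehicle replicate 2 for 6 and each THZ1 library for 4.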

How the data were processed

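Arima-HiC libraries of MDA-MB-231 cells were processed by the authors with Juicer 1.6 on hg19 per the labels. The deposited domain lists hold a corner score per domain, on a 10 kb grid. The deposited loop lists hold observed counts of contacts, without normalization, and the authors' expected signal from 4 neighborhoods, at anchors of 5, 10 and 25 kb. The settings of the callers are not given in the sources used here. Deposited tables of loops unique to a condition were not used.

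Domain size was the distance between both ends. Ends, loop anchor midpoints, gene starts (GENCODE 44 mapped to GRCh37, 20136 protein-coding genes) and motifs were matched within 20 kb, taking the nearest, and the domains of both THZ1 libraries were matched one to one. Each gene was counted at a single start, the upstream limit of its annotated span, so its other promoters were not counted. Shares were set beside 283309 grid positions every 10 kb with sequence on both sides. The CTCF core motif (12 positions, both strands) gave 10944 matches.

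Values per library were compared by exact two-sided permutation over 6 splits, with a smallest p of 0.33. Shares carry 95% Wilson intervals. Loop strength was tested with edgeR 4.0.16 in R 4.3.3 (glmQLFit and glmQLFTest, log donut expectation as offset). Of 2624 loops with identical anchors in all 4 lists, 1 with a donut expectation of 0 was left out. A stricter filter, no expectation of 0 in any of the 4 neighborhoods, was run as well. The counts of both were seen before the less strict one, which keeps to the design as fixed, was taken. DESeq2 1.42.0 was an alternative. Replicate numbers did not pair the libraries. Python 3.11.15, numpy 2.4.6, pandas 2.3.3, scipy 1.17.1 and matplotlib 3.10.9 were used, and matching and tests were tested on simulated data, where the strength test gave more false calls than its threshold allows.

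The domains, the gene lists and the motif were chosen with earlier results of these data known. Sequences are those of 4 high-scoring added domains with a convergent pair. The text names the 8 added domains of highest mean score, the 3 with most genes, the 2 highest without a gene, the 3 highest with no vehicle end or anchor, the 3 highest vehicle-only domains, up to 3 loops with the largest change in each direction, up to 5 genes per domain by distance from an end, and members of the 8 gene lists in added domains. All other names were chosen after their values were seen. A gene that the naming rule would give is not reported here.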

Additional observations from a re-analysis of the deposited data

How the results depend on the processing

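The number of domains of the range stayed higher with THZ1 under all alternatives, from 3.32-fold without vehicle replicate 1 to 5.37-fold without vehicle replicate 2. With the replicate number as a block, the fold was 4.22, and 44 loops of domains of the range and 12 of added domains were called weaker. The numbers did not pair the libraries (correlation of the replicate differences between conditions -0.00882 over loops), and with 1 difference per condition this is not a check over several pairs. The added domains numbered 920 when 1 THZ1 library was enough, and 388 to 688 with 1 library left out, 591 without THZ1 replicate 1 and 688 without THZ1 replicate 2. Settings with 1 THZ1 library ask for no counterpart in a duplicate.

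The share of ends of added domains at vehicle domain ends was 18.6% within 10 kb and 43.5% within 50 kb, and 20 to 24.3% with 1 library left out. At vehicle loop anchors it was 67.8% within 10 kb, 97.6% within 50 kb, 89.5% for domains of at least the median corner score, and 80.5 to 81.4% with 1 library left out. The share of added domains with a THZ1 loop joining both ends was 32.2% within 10 kb, 84.7% within 50 kb, 63.6% at the median score or above, and 43.8 to 57.8% with 1 library left out. For vehicle loops these values were 30.8, 89.2, 64.3 and 50.1 to 52.8%. The difference in corner loop share between conditions turned to 0.514 percentage points within 10 kb (exact permutation p = 0.667), and it was -4.81 to -1.43 with 1 library left out. The difference in motif share was 0.265 to 1.04 percentage points with 1 library left out. The ratio of corner loops was 0.987 without vehicle replicate 1, where it turned below 1, and up to 1.05.

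At domains of the range the calls of weaker loops were 6 with TMM and no expectation, 3 with the horizontal and 2 with the vertical expectation, 0 with DESeq2 and 0 with any 1 library left out. At added domains they were 1, 1, 1, 0 and 0. Over all loops, the horizontal and vertical expectations gave 48 and 59, and no loop was called weaker with any 1 library left out. The median at domains of the range stayed at -0.29, -0.28 and -0.38 with the horizontal and vertical expectations and DESeq2. With TMM the medians turned to 0.14 and 0.18, against -0.0047 over all loops. Over all 2623 loops, edgeR called 114 weaker and 73 stronger with TMM, and DESeq2 called 0 weaker and 1 stronger, with 360 at an unadjusted p under 0.05. With 1 library left out, the medians were -0.43 to -0.34 at domains of the range and -0.41 to -0.31 at added domains. Under the stricter filter of expectations, added after both were seen, 721 of 2617 loops were called weaker and 1 stronger, 41 at domains of the range and 12 at added domains. The 3 named loops lost their call under 7, 8 and 8 of 12 alternatives. Of these, the loop on chromosome 21 went to -0.018 with the vertical expectation and the one on chromosome 18 to -0.010 with TMM. The causes were not tested.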
